A study of Mus musculus with 9 samples.

Results

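The *Hoxb* cluster was examined in whole genome bisulfite sequencing (WGBS) tables of mouse embryonic stem cells (ESCs). Its members were the 10 genes *Hoxb1* to *Hoxb9* and *Hoxb13*, taken by name from 22372 annotated protein-coding genes, and all 10 were found. They lie on the forward strand of mm9 chromosome 11 in the order *Hoxb13*, *Hoxb9*, *Hoxb8*, *Hoxb7*, *Hoxb6*, *Hoxb5*, *Hoxb4*, *Hoxb3*, *Hoxb2*, *Hoxb1*. The region examined ran from 10 kb before *Hoxb13* to 10 kb after *Hoxb1* (chr11:96045630-96239570, 193941 bp). Of its 3858 CpGs, 3679 had at least 3 reads in every table and were used, out of 13328402 such CpGs in the part of the genome that every table covers. The J1 cells were of strain 129S4/SvJae and were wild type (WT), *Dnmt3a*-/- (*Dnmt3a* KO) or *Dnmt3b*-/- (*Dnmt3b* KO), and all were grown on gelatin in serum with LIF. How many clones stand behind a knockout is not given in the sources used here, so a difference between clones cannot be told apart from one between genotypes. The authors merged the 3 libraries of each genotype into 1 table, which leaves 1 value per genotype and no spread between replicates. No p-value is therefore given, and each interval is a 95% interval for the counting error of pooled reads. Reads are summed over CpGs, so a read that spans several CpGs counts at each of them. Intervals over several CpGs take these counts as independent and are to that extent too narrow. Sets of 3 percentages below stand in the order WT, *Dnmt3a* KO, *Dnmt3b* KO.

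Hox genes encode homeodomain transcription factors that set position along the head-to-tail axis, and their order on the chromosome follows the order of their expression along the body. In ESCs these genes are held silent under Polycomb, and retinoic acid opens *Hoxb* from its *Hoxb1* end. DNMT3A and DNMT3B add methyl groups to unmethylated CpGs, while DNMT1 copies existing methylation after replication. Hox genes are known for long stretches of DNA with little methylation, called under-methylated regions (UMRs) or, from 3.5 kb, canyons. Bisulfite reads do not separate methylated from hydroxymethylated cytosine, so methylation here is the sum of both.

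The sequences that carry the main contrasts are printed 5′ to 3′ on the forward strand of mm9, in lower case with each CpG in capitals. The *Gm53* intron sequence (chr11:96115552-96115851) is the stretch of 300 bp with the most CpGs in the region that lost most in *Dnmt3a* KO cells.
*Gm53* intron: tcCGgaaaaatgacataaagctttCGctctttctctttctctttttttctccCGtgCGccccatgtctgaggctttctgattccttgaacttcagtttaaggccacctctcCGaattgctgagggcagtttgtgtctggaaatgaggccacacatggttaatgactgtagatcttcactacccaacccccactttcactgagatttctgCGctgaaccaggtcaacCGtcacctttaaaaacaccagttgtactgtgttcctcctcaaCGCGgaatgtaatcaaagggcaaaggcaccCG
The *Hoxb3os* sequence (chr11:96209652-96209796), between *Hoxb3* and *Hoxb2*, is the region with the next largest loss in the same cells.
*Hoxb3os*: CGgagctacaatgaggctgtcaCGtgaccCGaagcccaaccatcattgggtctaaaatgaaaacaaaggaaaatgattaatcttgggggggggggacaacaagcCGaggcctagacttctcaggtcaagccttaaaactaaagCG
The *Hoxb1* exon sequence (chr11:96227442-96227548) holds the run of CpGs called in *Dnmt3b* KO cells, with its flanks.
*Hoxb1* exon: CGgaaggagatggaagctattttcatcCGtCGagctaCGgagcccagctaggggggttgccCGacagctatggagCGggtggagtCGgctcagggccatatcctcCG
The stretch before the annotated start of *Hoxb4* (chr11:96177748-96177997) belongs to the most methylated of the 10 member starts when 1 transcript is taken per gene.
*Hoxb4* upstream: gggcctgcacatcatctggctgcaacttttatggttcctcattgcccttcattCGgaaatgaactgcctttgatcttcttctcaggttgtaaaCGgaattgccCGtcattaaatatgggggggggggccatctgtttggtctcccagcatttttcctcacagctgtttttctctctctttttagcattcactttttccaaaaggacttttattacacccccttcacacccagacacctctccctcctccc

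The *Hoxb* region was less methylated than the rest of the genome in WT, and its methylation was lower still in both knockouts, most of all without *Dnmt3a*. Mean CpG methylation of the region was 40.7%, 17.02% and 33.2%, where the shared part of the genome had 82.4%, 50.3% and 75.5%. *Dnmt3a* KO cells kept 41.8% of the WT level and *Dnmt3b* KO cells 81.6%. As a share of reads, the change from WT was -27.7 to -26.8 points for *Dnmt3a* KO and -10.5 to -9.48 points for *Dnmt3b* KO. Between the knockouts the difference was -17.7 to -16.8 points, *Dnmt3a* KO being lower. Median depth over the region was 19 reads per CpG in every table. CpGs under 20% numbered 1618, 2526 and 1921 in the order given above, and CpGs at 80% or more 996, 95 and 685.

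The methylation was not spread evenly along the cluster. The spacer of 74.01 kb between *Hoxb13* and *Hoxb9* had 63.9%, 27.98% and 54.9%, and the stretch from *Hoxb9* to *Hoxb1* had 28.4%, 10.98% and 21.8%. Outside, the 100 kb before the region had 78.1%, 34.6% and 70.9% and the 100 kb after it 88.8%, 49.04% and 80.4%. The stretch that holds 9 of the members was thus the lowest of these in every table.

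**Figure D1:**
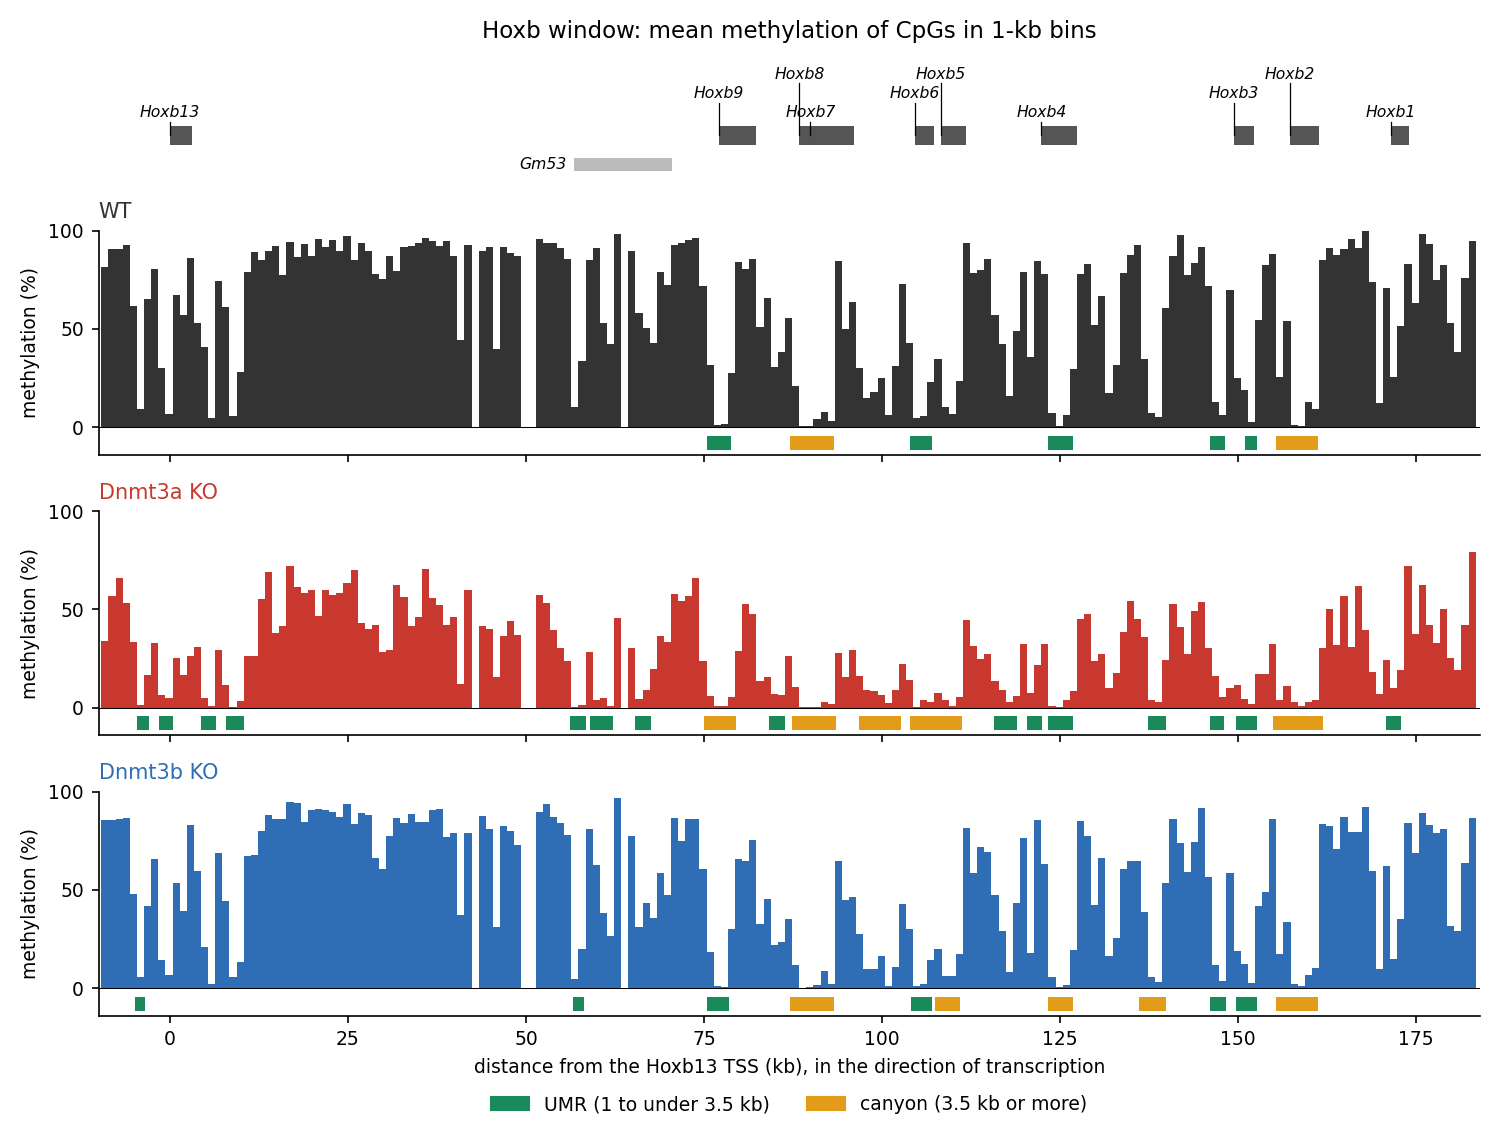
Mean methylation (%) in 1-kb bins with at least 3 CpGs across the *Hoxb* region, by distance (kb) from the *Hoxb13* TSS, with a track per genotype, genes above and UMRs and canyons marked under each track; bins with fewer CpGs are blank. The WT track is mostly high in the spacer, where a few bins are low, and has low stretches at many of the genes. The tracks hold 7 (WT), 20 (*Dnmt3a* KO) and 11 (*Dnmt3b* KO) low-methylated regions.

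Within 1 kb of the transcription start site (TSS) the members ranged in WT from 0.652% at *Hoxb7* to 79.5% at *Hoxb4*, and all 10 means were lower in both knockouts. A window was counted as lower where its mean fell by over 20 percentage points. In *Dnmt3a* KO cells 2 of 10 members passed, *Hoxb4* and *Hoxb1*, against 43.4% of all 14233 gene starts, and in *Dnmt3b* KO cells 0 of 10 passed, against 2.91%. *Dnmt3a* KO was lower than *Dnmt3b* KO by that much at 1 of 10, *Hoxb4*, against 33.3%. Since 5 of 10 had over 20% in WT, the other 5 could not pass, and among all starts over 20% in WT 86.1% and 5.77% passed in the *Dnmt3a* and *Dnmt3b* KO tables. Of those 7172 starts 5658 had 50% or more in WT, whereas the members over 20%, apart from *Hoxb4*, lay between 22.6% and 33.98%. In the class from 10% to under 50% the median change of all starts was -12.9 points in *Dnmt3a* KO cells. The members in it changed by -10.3 (*Hoxb2*), -14.5 (*Hoxb13*), -16.6 (*Hoxb5*), -17.3 (*Hoxb3*) and -21.4 points (*Hoxb1*). The median difference from WT over members was -12.4 points for *Dnmt3a* KO and -5.35 points for *Dnmt3b* KO, beside -14.02 and -3.92 points over all starts. The interval of the read shares lay below 0 at 10 of 10 members for *Dnmt3a* KO and at 8 of 10 for *Dnmt3b* KO, where *Hoxb13* and *Hoxb7* were the exceptions, against 95.6% and 74.2% of all starts. Between the knockouts it lay below 0 at 7 of 10, against 84.2%, and it included 0 at *Hoxb9*, *Hoxb8* and *Hoxb7*.

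*Hoxb13*, which limits growth at the tail end of the axis, had 23.6%, 9.13% and 17.6%. Its read share changed by -17.4 to -10.8 points in *Dnmt3a* KO cells, and by -3.99 to 3.22 points in *Dnmt3b* KO cells, which includes 0. *Hoxb9*, a gene for the thoracic skeleton, had 2.11%, 0.664% and 1.77%, with -1.25 to 0.258 points between the knockouts.

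*Hoxb8*, known from blood progenitors and microglia, had 7.998%, 4.0995% and 4.29%. The interval for the difference between its knockouts was -1.19 to 1.75 points. *Hoxb7*, a trunk gene, had 0.652%, 0.175% and 0.456%, with -1.13 to 0.0448 points between the knockouts, and since it starts inside the *Hoxb8* gene the windows of both share CpGs. *Hoxb6*, another trunk gene, had 9.24%, 2.72% and 4.55%. Together with *Hoxb9* these 4 neighbours were under 10% in WT, a class in which the median start of all genes had 3.99%, 0.847% and 2.18%.

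*Hoxb5*, which helps to place the shoulder girdle, had 22.6%, 5.94% and 13.000%, a change in read share of -18.9 to -14.4 points in *Dnmt3a* KO and -14.1 to -9.005 points in *Dnmt3b* KO cells. *Hoxb4*, a gene that expands blood stem cells, stood above all other members, at the 1 start used per gene, with 79.5%, 29.8% and 68.4% over 26 CpGs. Its read share changed by -55.5 to -46.3 points without *Dnmt3a* and by -20.3 to -10.3 points without *Dnmt3b*. In *Dnmt3a* KO cells 4.89% of all gene starts had a larger drop than *Hoxb4*. Of the 14233 starts 5658 had 50% or more in WT, with a median change of -36.2 points. Starts below 50% could hardly drop as far.

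*Hoxb3*, needed in the pharyngeal organs, had 28.2%, 10.9% and 21.7%. *Hoxb2*, a hindbrain gene that HOXB1 helps to switch on, had 15.5%, 5.16% and 10.9%. *Hoxb1*, a direct target of retinoic acid that specifies the hindbrain segment of the facial motor neurons, had 33.98%, 12.6% and 23.4%. The *Hoxb1* read share changed by -22.97 to -15.5 points in *Dnmt3a* KO and -15.3 to -7.66 points in *Dnmt3b* KO cells, so that both were below WT.

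The WT means ranked, from low to high, *Hoxb7*, *Hoxb9*, *Hoxb8*, *Hoxb6*, *Hoxb2*, *Hoxb5*, *Hoxb13*, *Hoxb3*, *Hoxb1*, *Hoxb4*. By read share the neighbours *Hoxb8* and *Hoxb6*, *Hoxb2* and *Hoxb5*, and *Hoxb3* and *Hoxb1* did not differ beyond counting error.

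Several of these values depend on the start that is used. The annotated *Hoxb4* transcript begins at 96177998, whereas the RefSeq promoter matched the genome with a start at 96179581, inside a WT UMR, where the window had 7.09%, 2.06% and 5.43% over 75 CpGs. The call at *Hoxb4* therefore holds for the annotated start and not for the RefSeq start. In the printed stretch before the annotated start the 3 CpGs had 76.7%, 3.896% and 83.1%, at a depth of 9.67, 17 and 14.3 reads per CpG. *Hoxb8* at its RefSeq start, which is also the annotated start of another transcript, had 27.3%, 13.3% and 16.3%, above the annotated start used here. A further annotated *Hoxb8* start, at 96143870, had 12.3%, 5.95% and 6.51%. *Hoxb3* has further annotated starts at 96184640, with 80.3%, 43.9% and 76.05%, and at 96189376, with 80.4%, 39.5% and 61.5%. Within 500 bp of the annotated start *Hoxb5* (35.9%, 9.12% and 20.2%), *Hoxb4* and *Hoxb3* (38.99%, 14.1% and 29.2%) passed in *Dnmt3a* KO cells, and *Hoxb1* (26.6%, 8.696% and 14.7%) did not, against 38.5% of all starts.

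**Figure D2:**
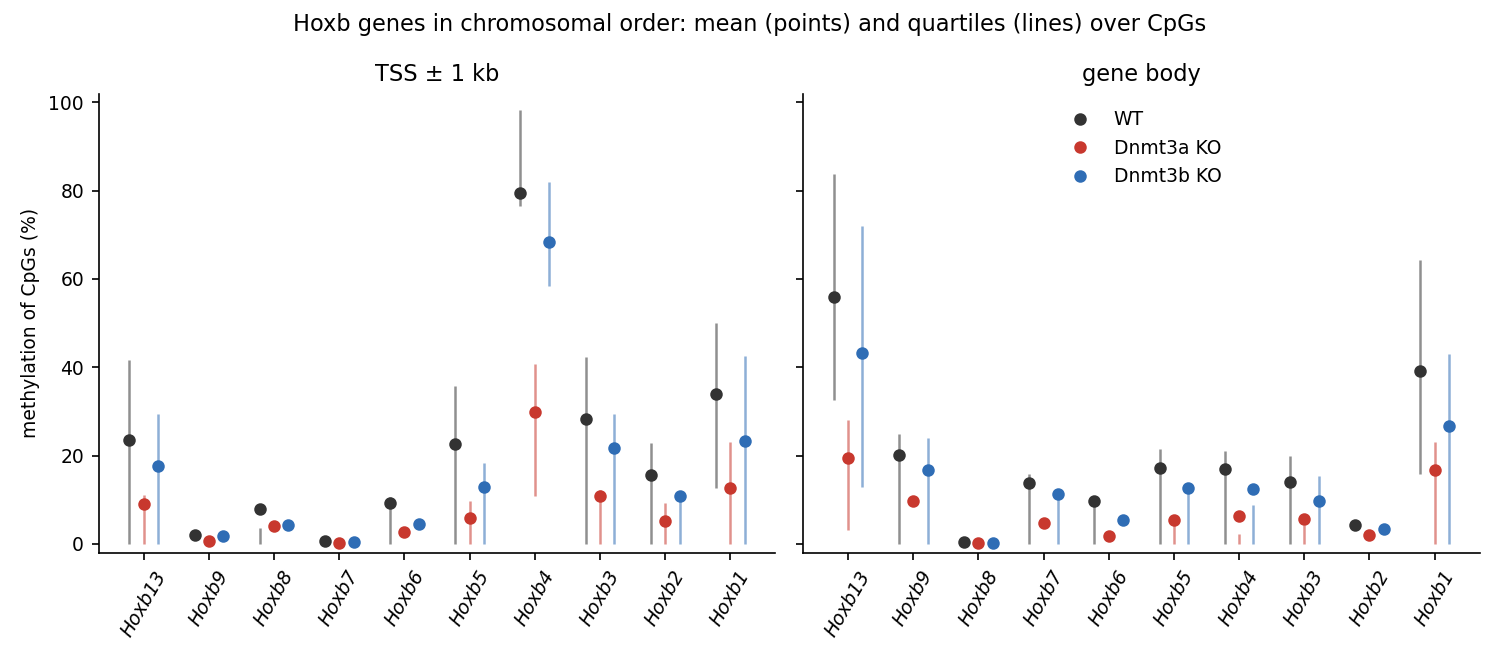
Mean methylation (%) of CpGs (points) with the first to the third quartile over CpGs (lines) for the 10 *Hoxb* genes in chromosomal order, at the TSS ± 1 kb (left) and over the gene body (right), by genotype. *Hoxb4* is the highest start at 79.5% and *Hoxb13* the highest gene body at 55.9% in WT, and the *Dnmt3a* KO mean is the lowest of the 3 in every column.

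Gene bodies of the members were far less methylated than those of most genes. The highest were *Hoxb13*, with 55.9%, 19.5% and 43.3%, and *Hoxb1*, with 39.1%, 16.8% and 26.7%, where the median over 14102 genes was 81.3%, 46.6% and 73.7%. *Hoxb13* and *Hoxb1* were the 2 of 10 bodies lower by over 20 points in *Dnmt3a* KO cells, against 89.4% of all bodies, and 0 of 10 passed in *Dnmt3b* KO cells, against 1.52%. With 3 of 10 member bodies over 20% in WT, the other 7 could not pass, and of all bodies over 20% in WT 93.4% and 1.59% passed in the same order. Of those 13493 bodies 12316 had 50% or more in WT, whereas *Hoxb9*, at 20.2%, could pass only by losing nearly all of it.

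The other bodies, of the 1 transcript used per gene, were at 20.2% or less in WT. Over the gene's full span *Hoxb3* had 32.1%, 15.9% and 26.5% over 476 CpGs, so that it too was over 20%. By that span *Hoxb6* had 17.4%, 5.13% and 9.56%, and *Hoxb8* 3.11%, 1.57% and 1.45%. The values that follow are those of the transcript used. *Hoxb9* had 20.2%, 9.61% and 16.8%. Its read shares were 29.7%, 14.4% and 15.5%, a change of -16.6 to -11.7 points in *Dnmt3b* KO cells. By read share the interval between its knockouts included 0 (-3.06 to 0.974 points). *Hoxb5* had 17.3%, 5.41% and 12.6%. *Hoxb4* had 16.9%, 6.33% and 12.3%, far below its annotated start. The bodies of *Hoxb3* (14.1%, 5.66% and 9.73%), *Hoxb7* (13.9%, 4.81% and 11.2%) and *Hoxb6* (9.65%, 1.86% and 5.53%) showed the same order of genotypes. *Hoxb2* had 4.21%, 2.05% and 3.48%. *Hoxb8*, with 0.452%, 0.148% and 0.192%, was the one body whose intervals against WT include 0 for both knockouts.

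By part of the gene, coding exons of the members averaged 10.2%, 3.61% and 6.63%. Introns had 18.8%, 5.77% and 14.5% and untranslated exon parts 25.5%, 10.7% and 20.1%. The 3 kinds of sequence kept from 30.7% to 41.8% of WT without *Dnmt3a*, and 64.9% to 78.95% without *Dnmt3b*.

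Gaps here and below run between the 1 transcript used per gene, and their levels were higher. Longer annotated transcripts of *Hoxb6* (from 96153790) and *Hoxb3* (from 96184640) cover most of the gaps from *Hoxb7* to *Hoxb6* and from *Hoxb4* to *Hoxb3*. The gap from *Hoxb2* to *Hoxb1* had 80.3%, 36.3% and 70.4%, that from *Hoxb3* to *Hoxb2* 59.6%, 16.2% and 46.7%, and that from *Hoxb5* to *Hoxb4* 52.9%, 15.9% and 41.7%. The gap from *Hoxb9* to *Hoxb8* had 42.2%, 12.4% and 27.9% and that from *Hoxb4* to *Hoxb3* 41.6%, 21.6% and 35.6%. Lower levels were found from *Hoxb6* to *Hoxb5* (31.9%, 6.61% and 19.2%) and from *Hoxb7* to *Hoxb6* (25.2%, 9.53% and 15.5%). Over the gaps between members, *Dnmt3a* KO cells kept from 20.7% of WT (*Hoxb6* to *Hoxb5*) to 51.9% (*Hoxb4* to *Hoxb3*), and *Dnmt3b* KO cells from 60.3% to 87.6%.

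The 1-kb bins were sorted by the same transcripts, and those in *Gm53* count as touching no member. Of the 145 bins that touch no member, 122 (84.1%) were lower by over 20 points in *Dnmt3a* KO cells, against 86.0% of all bins. In *Dnmt3b* KO cells 15 (10.3%) were, against 7.26%. Of the 44 bins that touch a member, 19 were lower in *Dnmt3a* KO and 0 in *Dnmt3b* KO cells. Among the 124 bins of the region with at least 50% in WT, 120 (96.8%) were lower in *Dnmt3a* KO cells, against 87.5%, and 14 (11.3%) in *Dnmt3b* KO cells, against 7.30%. These methylated bins kept a median of 45.99% of WT in *Dnmt3a* KO cells, beside 62.8% over the shared part, and 89.5% in *Dnmt3b* KO cells, beside 93.04%. Their WT median was 85.5%, beside 91.5%. Such bins of the *Hoxc* and *Hoxd* clusters kept medians of 42.3% and 42.4% in *Dnmt3a* KO cells, from WT medians of 80.9% and 85.7%.

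CpG density moved with the level. Over the 189 bins of the region, the number of CpGs and the WT level had a Pearson r of -0.76 and a Spearman rho of -0.70, as a description of bins that share libraries. Among bins with at least 50% in WT, the median share kept in *Dnmt3a* KO cells was 53.8%, 46.1% and 37.7% for bins with under 10, 10 to 19 and 20 or more CpGs (54, 53 and 17 bins), beside 62.4%, 63.5% and 63.7% in the shared part. In *Dnmt3b* KO cells it was 90.9%, 88.3% and 79.9%, beside 92.5%, 93.9% and 93.6%. The classes also differed in WT level, with medians of 87.1%, 85.7% and 71.8%, beside 91.1%, 92.2% and 92.1%, and the part of the WT level in these shares was not tested. Bins with 80 to 90% in WT had a median of 39.8% in *Dnmt3a* KO cells (35 bins), beside 53.4% over the shared part, and 79.9% in *Dnmt3b* KO cells, beside 81.4%. In each of the 7 classes of 10 points from 30% in WT the *Hoxb* median was below that of the shared part in both knockouts. In each of the 3 classes under 30% it was above, with 1.26%, 5.59% and 6.56% in *Dnmt3a* KO cells (25, 10 and 12 bins), beside 0.506%, 2.72% and 5.698%. In the lowest class the WT median was also higher in *Hoxb*, 4.91% beside 2.41%. From 30% the WT median was lower in *Hoxb* in every class but that of 70 to 80%, with 42.5% beside 45.7% at 40 to 50%. The part of these WT differences in the knockout medians was not tested.

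**Figure D3:**
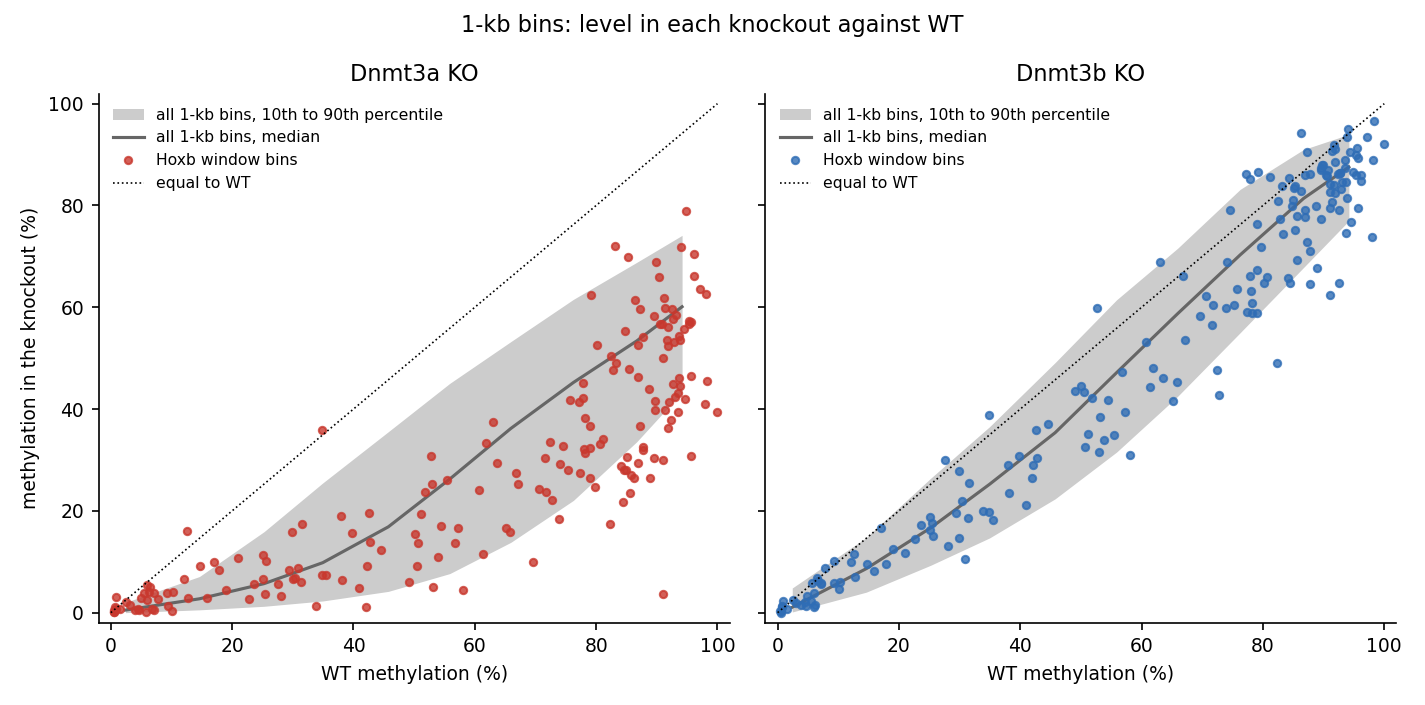
Methylation (%) of the 189 1-kb bins of the *Hoxb* region in *Dnmt3a* KO (left) and *Dnmt3b* KO cells (right) against WT (%), with the median (line) and the 10th to 90th percentile (band) of all bins of the shared part by WT level. In bins at 80 to 90% in WT the *Hoxb* median is 39.8% in *Dnmt3a* KO cells where the line is at 53.4%, and 79.9% in *Dnmt3b* KO cells where it is at 81.4%.

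A single CpG was called where the 95% credible interval for the change lay beyond 20 points. In *Dnmt3a* KO cells 775 of 3708 tested CpGs were lower (20.9%), against 25.6% in the shared part, and in *Dnmt3b* KO cells 108 of 3735 (2.89%), against 2.14%. *Dnmt3a* KO was lower than *Dnmt3b* KO at 450 CpGs (12.1%), against 16.8%. A CpG under 20% in the table compared with could not be called lower. Such CpGs made up 44.0% of the region in WT and 52.2% in *Dnmt3b* KO cells. Their share over the shared part is not given, but its WT mean was 82.4%, beside 40.7% for the region. The shares called thus stand on unlike WT levels. Higher CpGs numbered 2 in *Dnmt3a* KO (background 0.00703%) and 7 in *Dnmt3b* KO cells (background 0.0690%). The CpG at 96187098, between *Hoxb4* and *Hoxb3*, was higher in both, with 8%, 61.5% and 81.8% from 25, 13 and 11 reads. The CpG at 96178126, 128 bp after the annotated *Hoxb4* start, had 0%, 7.69% and 75% from 8, 13 and 12 reads.

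Runs of at least 4 called CpGs, or differentially methylated regions (DMRs), numbered 48 in *Dnmt3a* KO and 1 in *Dnmt3b* KO cells, all lower than WT, and 15 lower in *Dnmt3a* KO than in *Dnmt3b* KO. They held 7.17% of the tested CpGs of the region in *Dnmt3a* KO, against 6.16% in the shared part, and 0.107% (4 CpGs) in *Dnmt3b* KO cells, against 0.0437%. For *Dnmt3a* KO below *Dnmt3b* KO the share was 1.82%, against 2.19%. Both comparisons of *Dnmt3a* KO thus gave shares near the background. All these shares, and those by Fisher's exact test, carry the same limit from CpGs too low to be called. By Fisher's exact test 34.5% of the CpGs were lower in *Dnmt3a* KO, against 48.6%, and 4.63% in *Dnmt3b* KO cells, against 3.83%. Its DMRs held 18.9% of the tested CpGs, against 21.4%, and 0.134% (5 CpGs), against 0.108%, so that for *Dnmt3a* KO the share in DMRs was above the background by the credible interval and below it by Fisher's exact test. The same reads call a DMR and give its level, so the levels are a description. The 48 covered 10234 bp, with a median length of 154 bp. The spacer from *Hoxb13* to *Hoxb9* held 30 of them (62.5%) and 29.4% of the CpGs, and *Gm53* within it 13 (27.1%) and 7.96% of the CpGs. Member bodies held 5 (10.4%) and 35.5% of the CpGs. In WT the *Gm53* body had 53.3% and the member bodies together 16.97%.

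*Gm53*, annotated here as protein coding, lies before *Hoxb9* and just before the microRNA gene *Mir196a-1*. Its body had 53.3%, 12.96% and 38.4%. The DMR with the largest difference, chr11:96115512-96116103 in a *Gm53* intron, had 91.6%, 4.93% and 67.6% over 15 CpGs. In the printed part of it the 10 WT values lay between 72.2% and 100%, those of *Dnmt3a* KO between 0% and 25%, and those of *Dnmt3b* KO between 21.7% and 87.5%. This part was chosen for its gap between WT and *Dnmt3a* KO, so their ranges are a description only. The printed *Hoxb3os* sequence is the second DMR, with 89.3%, 8.73% and 45.8% over 5 CpGs. The next were chr11:96113786-96113932 in *Gm53* (83.3%, 3.61% and 56.5%), chr11:96221771-96221972 before *Hoxb1* (94.3%, 15.3% and 77.8%) and chr11:96114653-96115137 in *Gm53* (96.9%, 18.7% and 83.1%). In each of these 5 the *Dnmt3b* KO level lay between the others. They were ranked by the gap between WT and *Dnmt3a* KO, which leaves little room for another order. At the 5 largest differences of *Dnmt3a* KO from *Dnmt3b* KO, the *Dnmt3b* KO mean was above WT in 4. These 4 were chr11:96113890-96114038 in *Gm53* (73.8%, 4.82% and 88.1%), chr11:96177801-96178127 at the annotated *Hoxb4* start (57.5%, 4.85% and 81.1%), chr11:96110246-96110271 in *Gm11539* (81.9%, 9.16% and 83.3%) and chr11:96058385-96058989 in *Hoxb13* (82.95%, 17.3% and 86.5%). By read share the *Hoxb13* region had 87.6% in WT and 85.5% in *Dnmt3b* KO cells, the reverse order. The CpGs of this list were chosen for a *Dnmt3b* KO level above that of *Dnmt3a* KO, so no interval against WT is given. The other, chr11:96115512-96115609, lies in the *Gm53* DMR named first (91.1%, 7.79% and 86.3%).

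The DMR of *Dnmt3b* KO cells lay in the first coding exon of *Hoxb1* (chr11:96227472-96227518), 429 bp after the start. Its 4 CpGs had 59.3%, 18.2% and 5.13%. The reads summed over these CpGs were 70, 76 and 119, at a depth of 17.5, 19 and 29.75 reads per CpG, so 1 read can count at several CpGs. Here the *Dnmt3b* KO level was the lowest of the 3, at CpGs that were chosen for a low *Dnmt3b* KO level, whereas over the whole *Hoxb1* start window *Dnmt3a* KO was the lowest. In the printed sequence the CpG at 96227479 had 64.3%, 41.2% and 6.25%, and the CpG at 96227527 had 39.3%, 33.3% and 0%. The CpG at 96227517, also in the DMR, had 68.2%, 4.17% and 14.3%, with *Dnmt3a* KO the lowest, and *Dnmt3b* KO was likewise above *Dnmt3a* KO at 96227469 (5.26%, 7.14% and 10.3%) and 96227547 (12%, 0% and 17.4%).

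**Figure D4:**
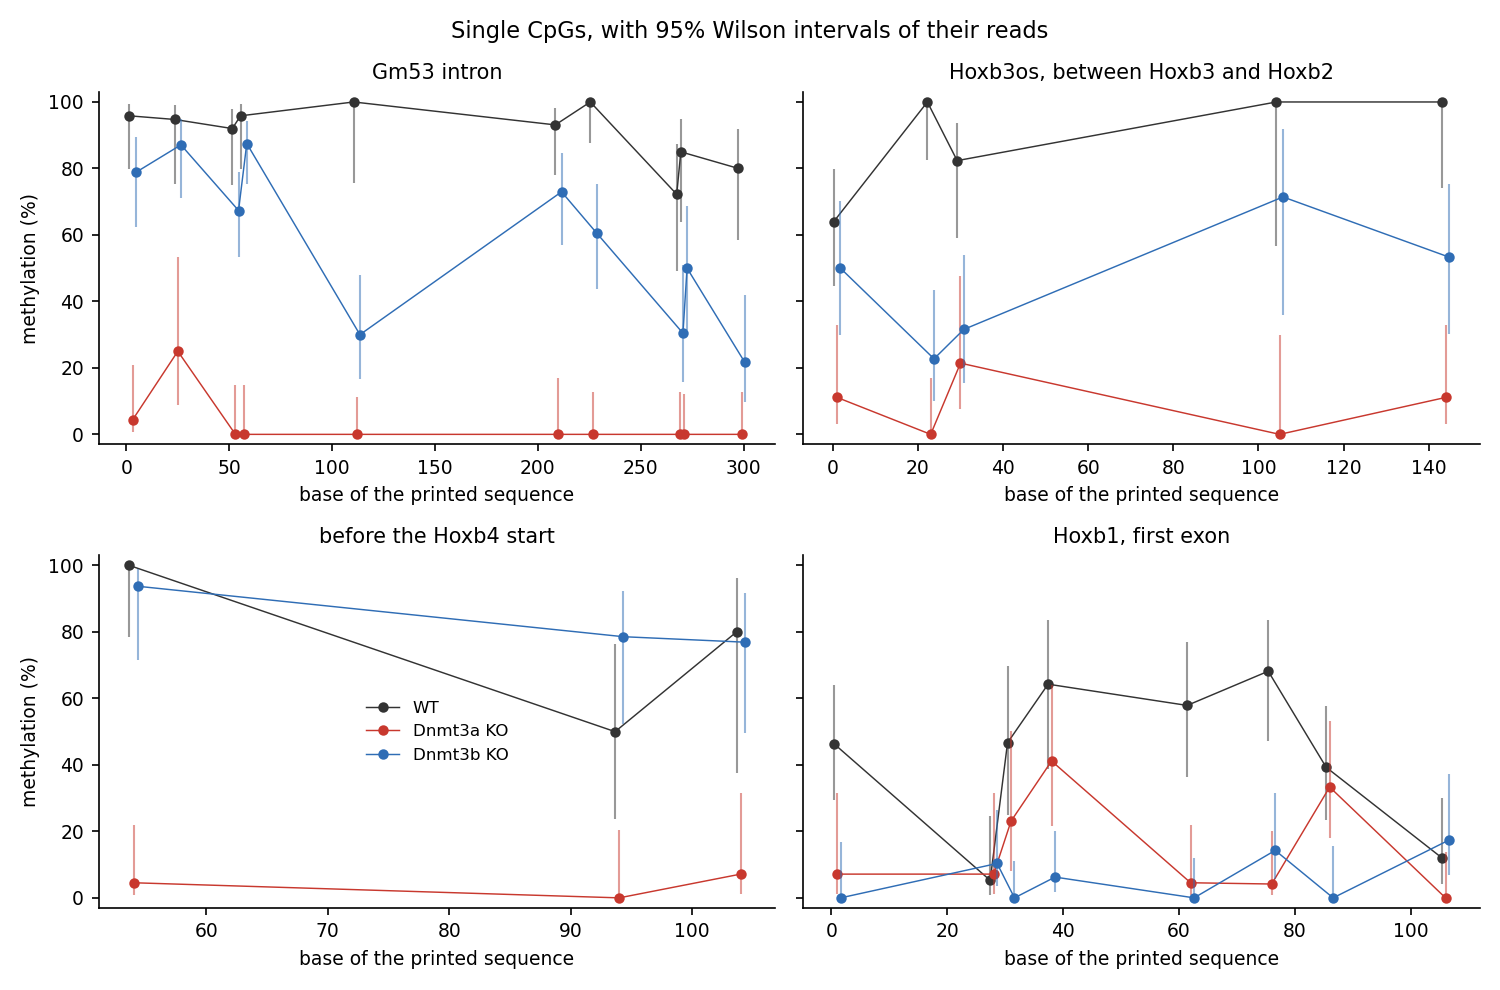
Methylation (%) of single CpGs with 95% Wilson intervals of their reads (vertical lines), by base of the printed sequence, in the *Gm53* intron, *Hoxb3os*, the stretch before the annotated *Hoxb4* start and the *Hoxb1* exon, by genotype. *Dnmt3a* KO lies at 25% or less at each CpG of the *Gm53* intron, and in the *Hoxb1* exon *Dnmt3b* KO lies below it at the CpGs at bases 1, 31, 38, 62 and 86 and above it at bases 28, 76 and 106.

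Low-methylated regions of at least 1 kb covered more of the region in the knockouts, and were more numerous when the model was fitted in each genotype. WT had 7, 5 UMRs and 2 canyons, over 25920 bp (13.4% of the region). They lay at *Hoxb9*, over *Hoxb8* and *Hoxb7* (a canyon of 6.14 kb), at *Hoxb6*, in the *Hoxb4* body, before *Hoxb3*, in the *Hoxb3* body and at *Hoxb2* (a canyon of 5.83 kb), and held 5 member starts. *Dnmt3a* KO cells had 20, 15 UMRs and 5 canyons, over 67417 bp (34.8%), with 9 member starts, all but *Hoxb3*, and 13 of these regions met no WT region. *Dnmt3b* KO cells had 11, 6 UMRs and 5 canyons, over 37450 bp (19.3%), with 6 member starts, and 4 met no WT region. No share of the genome in such regions is given here, so these counts cannot be read as particular to *Hoxb*. The authors report that UMRs and canyons also rose in number across the genome in *Dnmt3a* KO cells.

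The regions of *Dnmt3a* KO cells that met none in WT took in the starts of *Hoxb13* (2.005 kb), *Hoxb4* (2.16 kb) and *Hoxb1* (2.15 kb), and a canyon of 5.84 kb between *Hoxb7* and *Hoxb6*. The UMR at *Hoxb6*, 3.04 kb in WT, was part of a canyon of 7.24 kb that reached over *Hoxb5*. The canyon at *Hoxb8* and *Hoxb7* had 6.19 kb in *Dnmt3a* KO and 6.28 kb in *Dnmt3b* KO cells, close to its WT length. In *Dnmt3b* KO cells the *Hoxb5* start gained a region of 3.51 kb, and the one in the *Hoxb4* body went from 3.46 to 3.51 kb, just past the limit for a canyon. Lengths depend on the caller. With a running mean of 5 CpGs they were 10649, 33907 and 18894 bp, in the same order of genotypes, and the regions numbered 7, 18 and 10. With the model fitted to WT, *Dnmt3a* KO cells had 82970 bp in 2 regions, fewer than the 7 of WT, and *Dnmt3b* KO cells 32184 bp in 8, so that the count in *Dnmt3a* KO cells depends on the fit.

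Outside the WT regions the *Dnmt3a* KO level was low at the edges and stayed low out to 10000 bp, while the WT level also fell with distance. CpGs at 1 to 500 bp had 68.8%, 18.7% and 53.7% (75 CpGs), beside 79.99%, 24.1% and 59.4% at all WT regions of chromosome 11. In the next class, up to 1000 bp away, they had 58.6%, 24.01% and 48.996%, beside 82.96%, 36.6% and 71.2%. Inside the WT regions the *Hoxb* CpGs were higher than on the chromosome, with 7.57%, 2.89% and 4.95%, beside 4.55%, 0.934% and 2.43%. There *Dnmt3a* KO cells kept 38.2% of WT, beside 20.5%.

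**Figure D5:**
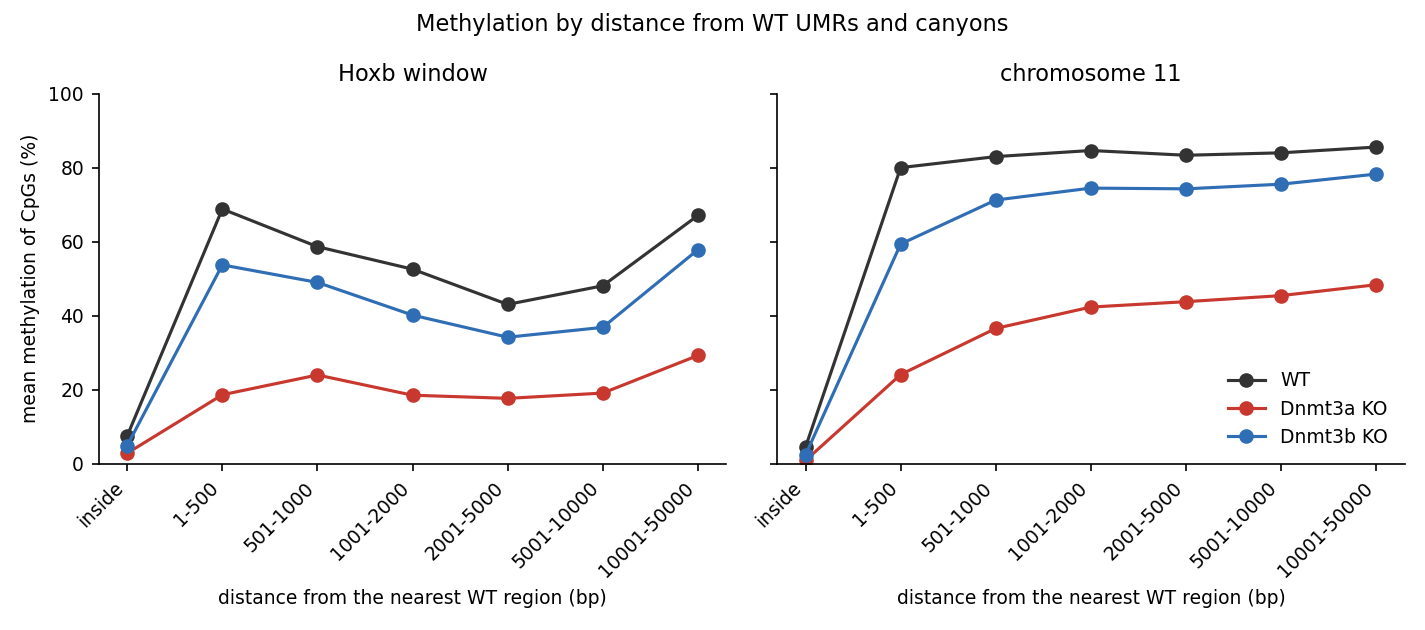
Mean methylation (%) of CpGs by distance (bp) from the nearest WT UMR or canyon in the *Hoxb* region (left) and on chromosome 11 (right), by genotype. At 1 to 500 bp the *Hoxb* levels are 68.8%, 18.7% and 53.7%, and outside the regions the *Hoxb* means stay below those of the chromosome in every genotype, while inside them they lie above.

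CpG islands, merged windows of 500 bp with at least 55% GC and an observed to expected CpG ratio of at least 0.65, numbered 25. Their CpGs had 9.701%, 2.92% and 6.11%, and the other CpGs 57.2%, 24.5% and 47.7%. Islands under 10% numbered 15, 23 and 16 in the order of the percentages, and 0 reached 50% in WT. By over 20 points 4 islands were lower in *Dnmt3a* KO and 0 in *Dnmt3b* KO cells, against 16.1% and 5.39% of the islands of chromosome 11. The 4 lay in *Gm53* (43.5%, 2.18% and 28.3%), before *Hoxb9* (35.9%, 8.31% and 25.1%), before *Hoxb4* (44.4%, 13.4% and 31.99%) and in *Hoxb1* (39.9%, 8.58% and 23.8%). An island before *Hoxb3* had 13.2%, 19.4% and 13.2% from 17 of its 41 CpGs, and its read shares did not differ beyond counting error.

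The *Hoxc* and *Hoxd* clusters, which the tables also cover, showed the same order of genotypes. The *Hoxc* region had 30.8%, 11.9% and 24.05% and the *Hoxd* region 31.7%, 10.3% and 24.8%. In *Dnmt3a* KO cells they kept 38.6% and 32.7% of WT, beside 41.8% for *Hoxb*. Low-methylated regions covered 12.9% of *Hoxc* in WT and 49.4% in *Dnmt3a* KO cells, and 15.02% and 55.5% of *Hoxd*. At TSS windows 0 of 9 *Hoxc* genes passed in *Dnmt3a* KO cells, from *Hoxc10* (15.8%, 6.301% and 10.3%) to *Hoxc13* (2.38%, 0.433% and 1.01%), and 2 of 9 *Hoxd* genes did, with *Hoxd12* (54.4%, 11.5% and 43.5%) the largest and *Hoxd11* (0.955%, 0.234% and 0.501%) the smallest difference. In *Dnmt3b* KO cells 0 passed in either cluster. The count for *Hoxc* was set by its WT levels, since 0 of its 9 starts and 3 of those of *Hoxd* had over 20% in WT. Over all gene starts 43.4% and 2.91% passed in the respective knockouts.

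Genes that act with *Hoxb* or upstream of it were read the same way, and their counts stand beside the same 43.4% (*Dnmt3a* KO) and 2.91% (*Dnmt3b* KO) of all gene starts. Of the TALE cofactors, which bind DNA with Hox proteins, 0 of 8 measured passed in either knockout, and none could, since 0 of 8 had over 20% in WT, with values from *Meis1* (13.1%, 3.63% and 11.5%) to *Pbx3* (0.473%, 0.564% and 0.279%). Of 14 upstream regulators in the retinoic acid, Cdx and Wnt pathways, 6 had over 20% in WT, and 3 passed in *Dnmt3a* KO and 1 in *Dnmt3b* KO cells. The largest difference was at the retinoic acid receptor gene *Rara* (80.5%, 14.8% and 54.1%). Of 13 Polycomb and Trithorax genes 1 had over 20% in WT, and 1 passed in *Dnmt3a* KO and 0 in *Dnmt3b* KO cells, from the H3K27 demethylase *Kdm6b* (45.6%, 12.8% and 33.9%) to the Polycomb partner *Jarid2* (0.268%, 0.162% and 0.904%).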

How the data were processed

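WGBS covered 3 libraries per genotype. The authors aligned paired-end reads to mm9 with BSMAP, trimmed end-repair bias, removed clonal reads with BSeQC, called CpGs with MOABS and merged the 3 libraries of a genotype. The deposited tables hold raw counts of methylated and all reads per CpG and their ratio as a fraction from 0 to 1. The counts were used here, and the fraction was checked against them. Mean depth over the region was 20.1 to 20.4 reads per CpG. Alternatives were 10 reads, read shares, other starts and windows, Fisher's exact test and other region callers. The WT table ends on chromosome 4 at position 140865857 with an incomplete row, so the part shared by all tables (chromosomes 1 to 3, 10 to 19 and most of 4) was the background.

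Levels are means of the CpG ratios over those CpGs that had 3 or more reads in each of the tables. Genes came from GENCODE vM1 on the same build, with 1 transcript per gene (the longest coding sequence), and RefSeq promoters (GRCm38.p6) of 3 members were placed on mm9 by their sequence. CpGs were called from Beta posteriors (95% credible interval beyond 0.2). DMRs needed 4 consecutive tested CpGs within 300 bp of each other. Low-methylated regions came from a hidden Markov model of 2 beta-binomial states fitted to chromosome 19 (at least 5 CpGs, mean under 10%, at least 1 kb). Intervals are Wilson and Newcombe intervals of pooled reads. They cover counting error only, with a read counted once at each CpG it spans, and belong to the read share, which weights CpGs by depth. The calls were checked on simulated data. The genes named are all members, the annotated genes of the region that a result turns on, at most 5 DMRs per knockout with the largest difference, and the largest and smallest difference in each other list. One gene and one sequence that this would include are not reported here. The gains, the *Hoxb3* starts and the CpG islands were named after their values were seen. The members and lists were chosen with earlier results of these data known. Python 3.11.15 was used with NumPy 2.4.6, pandas 2.3.3, SciPy 1.17.1 and numba 0.67.0. Versions of the authors' tools are not given in the sources used here.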

Additional observations from a re-analysis of the deposited data

How the results depend on the processing

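No paired analysis was possible because the authors merged the 3 libraries of each genotype, so that leaving out a replicate could not be run either. The regional difference from WT was -23.7 points in *Dnmt3a* KO and -7.47 points in *Dnmt3b* KO cells; with at least 10 reads it was -25.9 and -8.07, and as a share of reads -27.2 and -9.97. Bins that touch no member and were lower by over 20 points in *Dnmt3a* KO cells numbered 122, or 76 of 95 with at least 10 CpGs. Fisher's exact test asks only that the observed difference passes 20 points, where the credible call asks it of the whole interval. With it CpGs lower numbered 1278 in *Dnmt3a* KO and 173 in *Dnmt3b* KO cells, in place of 775 and 108. DMRs in *Dnmt3a* KO cells numbered 98 in place of 48, and the part of the looser rule in these counts was not tested. In the shared part these DMRs numbered 459068 in place of 141963, and the share of tested CpGs in *Dnmt3a* KO DMRs went from above that of the shared part to below it. With the running mean the length in low-methylated regions was 10649 bp (WT), 33907 bp (*Dnmt3a* KO) and 18894 bp (*Dnmt3b* KO). With the states fitted to WT it was 82970 bp and 32184 bp in the 2 knockouts, in that order. Of the TSS windows 3 of 10 were called in *Dnmt3a* KO cells within 500 bp (*Hoxb5*, *Hoxb4* and *Hoxb3*) and 3 of 10 at the start of the gene's full span (*Hoxb4*, *Hoxb3* and *Hoxb1*), and 0 in *Dnmt3b* KO cells with either; over the full span 2 and 0 gene bodies were called, as many as before. With RefSeq starts, chosen after seeing the data and available for 3 members, 1 TSS window was called in *Dnmt3a* KO cells, *Hoxb1*, in place of *Hoxb1* and *Hoxb4*. With at least 10 reads 19 of 20 member TSS differences stayed below 0; *Hoxb9* in *Dnmt3b* KO cells was 0.514 points above WT. Coverage, 20.1 to 20.4 reads per CpG on average, limits single CpGs more than windows.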
